A study of Homo sapiens with 4 samples.

Results

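Peroxiredoxins and the thioredoxin system were examined in SK-N-BE(2) cells through 10 genes: the peroxiredoxins PRDX1, PRDX2, PRDX3, PRDX4, PRDX5 and PRDX6, thioredoxin (TXN), thioredoxin reductase 1 (TXNRD1), sulfiredoxin (SRXN1) and the thioredoxin-interacting protein TXNIP. The genes were listed by name and matched by symbol to the Ensembl identifiers of the count table. All 10 were among the 64252 genes of the table and among the 18779 that passed the filter on low counts. They were chosen from values of this same comparison, so their levels and differences are given here as a description. No p-value is given for them, and counts of members called in the fit over all genes are descriptive too.

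SK-N-BE(2) is a MYCN-amplified human neuroblastoma cell line, and RNA-seq was performed on cells carrying a scrambled shRNA (sh-Scb, 2 libraries) or an shRNA against SAPCD2 (sh-SAPCD2, 2 libraries). Both groups were grown in the same medium and had been infected with lentivirus and selected with puromycin, so the control cells carry a vector and a hairpin too. The labels do not number the shRNA, and the study's own heat map of these libraries names it sh-SAPCD2#1. No second shRNA and no rescue were sequenced, and nothing states whether the 2 libraries of a group came from separate cultures, so the p-values below measure only the spread between libraries.

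The libraries held 25347900 to 31850997 counts, and 3 counts, taken as the least that this depth can show, corresponded to 0.0955 to 0.119 CPM, where CPM is the count after scaling every library to the same total with TMM factors. SAPCD2 had 2308 and 2263 counts in sh-Scb cells and 895 and 1648 counts in sh-SAPCD2 cells. Its level was 82.9 ± 0.924 CPM (SD, n = 2) in the control and 43.9 ± 12.1 CPM (SD, n = 2) after knockdown, which is −0.91 on the log2 scale (standard error 0.193). The quasi-likelihood test of edgeR gave it an adjusted p of 0.0206 after Benjamini-Hochberg adjustment. The knockdown libraries kept 42.7% and 63.3% of the control level. All 10 noradrenergic neuroblastoma markers examined were present, with control means of 79.1 to 3210 CPM. The summed level of the 8 fibroblast markers was 391 to 407 CPM in the control and 421 to 455 CPM after knockdown, with 1 of them at 0. The summed level of the 5 leukocyte markers was 9.59 to 10.3 CPM and 12.4 to 14.3 CPM, with 2 of them at 0. The part of these differences in the results below was not tested.

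Peroxiredoxins remove hydrogen peroxide with a reactive cysteine that is oxidized in each cycle. In most of the family the oxidized cysteine forms a disulfide that thioredoxin reduces, and thioredoxin reductase then restores thioredoxin at the expense of NADPH. A cysteine that is oxidized further is rescued by sulfiredoxin, and TXNIP, an alpha-arrestin, binds thioredoxin and limits glucose uptake. The glutathione system works in parallel and draws on the same NADPH.

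PRDX2, an abundant peroxiredoxin of the cytosol, was the member with the largest difference. It had 7045 and 7095 counts in sh-Scb cells and 1167 and 1564 counts in sh-SAPCD2 cells, which were 255.0 and 257.9 CPM against 46.1 and 49.8 CPM. The groups were far apart and the libraries of each group lay close together. The mean fell from 256 ± 2.0 to 48.0 ± 2.62 CPM (SD, n = 2 each), a 5.35-fold lower level and a log2 fold change of −2.42 (standard error 0.104). The knockdown libraries kept 18% and 19.4% of the control mean of PRDX2, whereas they kept 42.7% and 63.3% of that of SAPCD2. Of all tested genes, 111 (0.591%) had a lower log2 fold change than PRDX2. Among the 2141 tested genes with a control mean of at least 100 CPM only 2 did, PPP2R1A, a scaffold subunit of protein phosphatase 2A (log2 fold change −2.61), and SRP9, a subunit of the signal recognition particle (log2 fold change −2.76). These were chosen after their values were seen.

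PRDX2 (ENSG00000167815) occupies bases 12796820 to 12801800 of chromosome 19 in hg38, on the minus strand. Its canonical transcript has 6 exons and 925 bases, with a 3′ untranslated region of 258 bases. The stretch of the shRNA target shown in capitals, TCCACCT, is shown because it occurs in that region and in that of TXNIP. It pairs with positions 5 to 11 of the guide arm, counted from its 5′ end, and had been singled out in an earlier scan of these same data. The arms are designed sequences of 21 bases, and each site is the hg38 sequence of the transcript strand, 5′ to 3′, in the last exon.

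sense arm of sh-SAPCD2 #1: acctctggatTCCACCTtcat
guide arm of sh-SAPCD2 #1: atgaAGGTGGAatccagaggt
PRDX2, first site, chr19:12797010-12797039, minus strand: ctgtgctgggtgTCCACCTgtgcccccacc
PRDX2, second site, chr19:12796897-12796926, minus strand: ccttctcatgccTCCACCTagaagctgaat
TXNIP, chr1:145993728-145993757, minus strand: atggagtgtgggTCCACCTtagcctctgac

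In the PRDX2 region the 7 letters begin at bases 54 and 167, and the longest run shared with the sense arm is 7 bases at each. In TXNIP, whose 3′ untranslated region has 1416 bases, they begin at base 106 and the shared run is 8 bases. TCCACCT is 1 of 4 letter strings singled out in that scan. Another of them, which begins at base 168 of the PRDX2 region, is in neither arm shown. Holding 1 of the 4 therefore need not mean a match to the hairpin. The other 8 members hold none of the 4 strings in their 3′ untranslated regions. Thus 2 of 10 members (20%) hold at least 1 of them, against 33.9% of the 13584 tested genes with such a region, and TCCACCT alone is in 17.9% of those genes. Among the 1639 genes with a 3′ untranslated region no longer than that of PRDX2, 31 (1.89%) hold TCCACCT and 3 (0.183%) hold it at least 2 times. The other 2 of these were COPE, a coatomer subunit (log2 fold change −0.22, standard error 0.198, edgeR adjusted p = 0.458), and SCAF1, a splicing-associated protein (−0.04, standard error 0.208, edgeR adjusted p = 0.9). PRDX2, TXNIP, COPE and SCAF1 each hold 1 or more of these sites, and COPE and SCAF1 were singled out after their values were seen. The part of these sites in the level of PRDX2 was not tested.

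The 5 genes whose pattern over the 4 libraries was nearest to that of PRDX2 were sought among 15681 genes with a mean of at least 1 CPM, by the Euclidean distance of centered log2 CPM. They were ADGRD1-AS1 (distance 0.0235), ENSG00000237095 (0.129), PRTFDC1 (0.143), MDC1 (0.148) and SLC16A12 (0.153). With 4 libraries in 2 groups, the distance mainly reflects the size of the difference between the groups. MDC1, a scaffold of the DNA damage response, had a log2 fold change of −2.52, and PRTFDC1, a relative of a purine salvage enzyme, had one of −2.35.

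**Figure D1:**
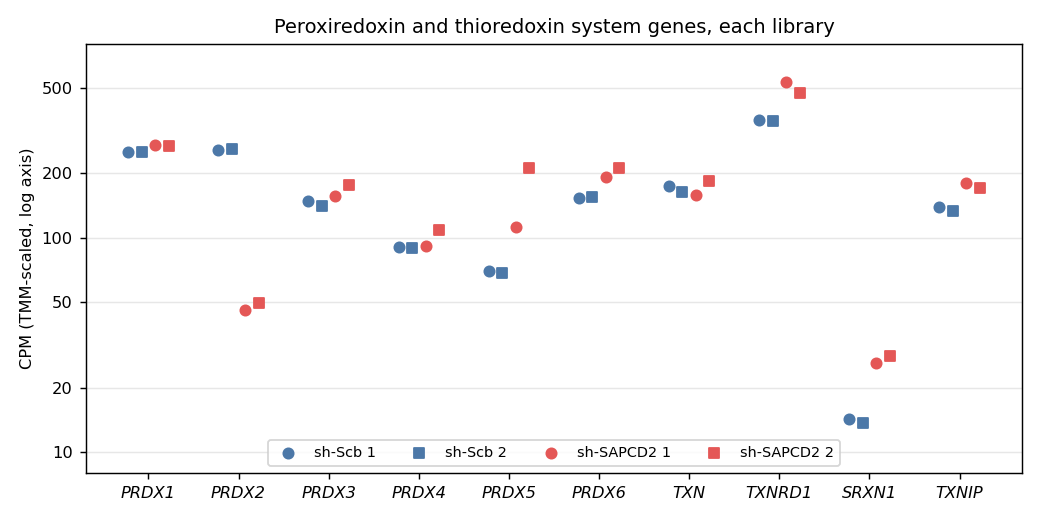
Level of each gene in each library, in TMM-scaled CPM on a log axis; blue points are sh-Scb and red points sh-SAPCD2, with circles for replicate 1 and squares for replicate 2. PRDX2 fell from about 256 to 48.0 CPM, and the PRDX5 libraries of the sh-SAPCD2 group lie apart, at 112.7 and 211.9 CPM.

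PRDX1, the closest relative of PRDX2 and likewise a cytosolic enzyme, was at 251.3 and 249.6 CPM in sh-Scb cells and at 271.1 and 268.3 CPM in sh-SAPCD2 cells. The groups did not overlap, but the log2 fold change was only 0.11 (standard error 0.091). PRDX1 (chromosome 1, 45510914 to 45542732, minus strand) shares 501 exonic bases with MMACHC, an enzyme of vitamin B12 handling on the opposite strand. MMACHC had 817 and 847 counts in the control and 432 and 562 after knockdown (log2 fold change −0.79, standard error 0.13, edgeR adjusted p = 0.0103). The strand setting of the counting is not given in the sources used here, so reads in the shared bases cannot be assigned to either gene with certainty. PRDX2 shares 247 exonic bases with a lncRNA on the opposite strand, ENSG00000267062, which had 0 counts in all 4 libraries.

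The peroxiredoxins PRDX3 and PRDX4 belong to organelles, and neither was called. PRDX3, which works in mitochondria, was at 148.7 and 141.2 CPM in the control and at 157.1 and 175.8 CPM after knockdown (log2 fold change 0.20, standard error 0.106). PRDX4, the enzyme of the endoplasmic reticulum, was at 90.5 and 89.5 CPM against 91.6 and 108.3 CPM (log2 fold change 0.15, standard error 0.12). In neither gene did the groups overlap, although the first knockdown library of PRDX4 lay only about 1 CPM above the control.

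PRDX5, found in mitochondria, peroxisomes and the cytosol, was the member with the largest difference upward. It was at 70.2 and 68.2 CPM in sh-Scb cells and at 112.7 and 211.9 CPM in sh-SAPCD2 cells. The second knockdown library was 1.88 times as high as the first, a wider gap than in any other member. The mean was 69.2 ± 1.42 CPM in the control and 162 ± 70.1 CPM after knockdown (SD, n = 2 each), a 2.35-fold difference and a log2 fold change of 1.23 (standard error 0.28). Without the second knockdown library the log2 fold change was 0.71, and without the first it was 1.61. Correcting the libraries for GC content and gene length gave 1.01, and PRDX5 is the member with the highest exonic GC content, 60.6% over its 860 bases. The part of GC content in the difference between the 2 knockdown libraries was not tested.

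PRDX6, which has a single catalytic cysteine and draws on glutathione rather than thioredoxin, was at 152.4 and 155.1 CPM in the control and at 191.1 and 211.4 CPM after knockdown. The groups did not overlap, and the log2 fold change was 0.39 (standard error 0.102).

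Among the genes that serve the peroxiredoxins, thioredoxin itself showed no separation. TXN was at 174.3 and 162.9 CPM in sh-Scb cells and at 158.8 and 184.4 CPM in sh-SAPCD2 cells, so the control libraries lay between those of the knockdown (log2 fold change 0.03, standard error 0.115). TXNRD1, the cytosolic reductase and a selenoprotein, was at 353.7 and 351.6 CPM against 532.2 and 472.2 CPM (log2 fold change 0.51, standard error 0.102). The mean of TXNRD1 was 353 ± 1.46 CPM in the control and 502 ± 42.4 CPM after knockdown (SD, n = 2 each).

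SRXN1, which repairs overoxidized peroxiredoxins, was the member with the lowest level per kb in both groups. In CPM it was at 14.3 and 13.7 CPM in the control and at 25.95 and 28.08 CPM after knockdown. The libraries of each group lay close together, and the mean rose from 14.0 ± 0.448 to 27.0 ± 1.51 CPM (SD, n = 2 each), a 1.93-fold difference. The log2 fold change was 0.95 (standard error 0.137), just under the fold threshold of 1. SRXN1 (chromosome 20, 646615 to 653200, minus strand) shares 2292 of its 2528 exonic bases with the protein-coding gene ENSG00000270299 on the same strand. That gene had 11 and 12 counts in the control and 85 and 117 after knockdown (log2 fold change 3.07, standard error 0.307, edgeR adjusted p = 0.00322). SRXN1 had 395 and 376 counts and 657 and 882 counts in the same libraries, so the overlapping gene was the smaller part in every library, and how the counting divided reads between them is not given in the sources used here.

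TXNIP, the inhibitor of thioredoxin, was at 138.5 and 133.6 CPM in sh-Scb cells and at 180.3 and 171.3 CPM in sh-SAPCD2 cells. The groups did not overlap, and the log2 fold change was 0.37 (standard error 0.0968).

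**Figure D2:**
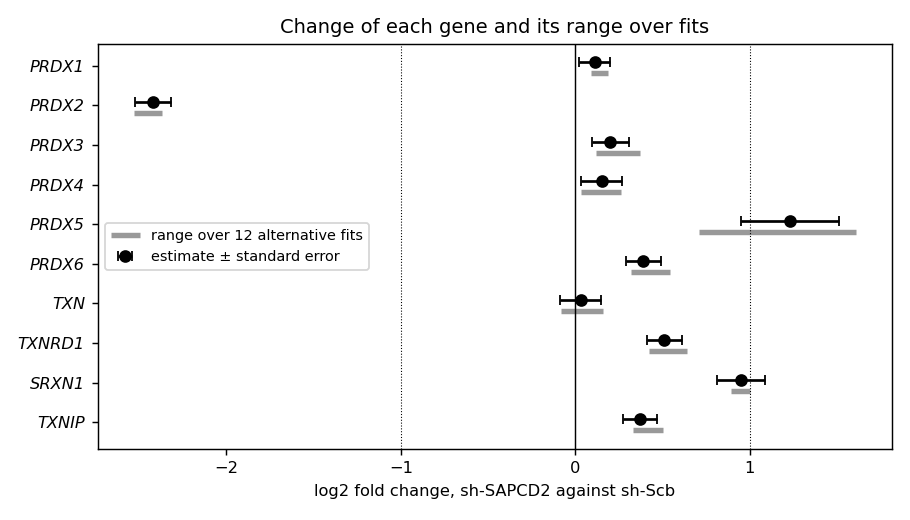
Log2 fold change of each gene, sh-SAPCD2 against sh-Scb; black points with bars are the estimate and its standard error, gray bars the range over 12 alternative fits, and dotted lines the fold thresholds. PRDX2 stayed between −2.53 and −2.37, while PRDX5 ranged from 0.71 to 1.61 and TXN lay on both sides of 0.

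With both an adjusted p under 0.05 and a log2 fold change beyond 1 in either direction, PRDX5 was called higher and PRDX2 lower, 1 of 10 members each. Over all tested genes, 4.69% were higher and 5.15% lower by this rule. At the adjusted p alone, 5 members were higher (PRDX5, PRDX6, TXNRD1, SRXN1 and TXNIP), 1 was lower (PRDX2) and 4 were not called (PRDX1, PRDX3, PRDX4 and TXN), where 12.4% of all tested genes were higher and 12.5% lower. The count of 5 fell to 2 without either sh-Scb library (PRDX5 and SRXN1) and to 2 without the filter on low counts (TXNRD1 and SRXN1). Correcting for GC content and gene length raised the count to 7, as PRDX1 and PRDX3 were then called higher too. The groups did not overlap, in the upward direction, for 8 members and 33.5% of all tested genes, and in the downward direction for 1 member and 33.4%. The median log2 fold change of the 10 members was 0.28, and that of all tested genes was 0.02. Because the genes were picked with these values in view, nothing is read from these shares.

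Levels of different genes were compared per kb of exon. On the union of annotated exons, the mean control level was highest in TXN (167 ± 7.99 CPM per kb), followed by PRDX1 (149 ± 0.684) and PRDX2 (126 ± 0.981), then PRDX5, PRDX6, TXNRD1, PRDX4, PRDX3 and TXNIP from 80.5 down to 37.8, and lowest in SRXN1 (5.53 ± 0.177 CPM per kb; SD, n = 2 throughout). The control libraries of neighbors in this order did not overlap. In sh-SAPCD2 cells PRDX2 was in place 9 of 10, at 23.6 ± 1.29 CPM per kb (SD, n = 2). There PRDX5 had the highest mean, 189 ± 81.5 CPM per kb, but its libraries, at 131 and 246, enclosed those of TXN and PRDX1, so the top places do not differ beyond the spread. PRDX4, PRDX3 and TXNIP likewise overlapped in the knockdown libraries. With the length of the canonical transcript in place of the union, PRDX2 was first in the control (277 ± 2.16 CPM per kb) and again in place 9 after knockdown (51.8 ± 2.83 CPM per kb; SD, n = 2 each).

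The summed length-scaled level of the 6 peroxiredoxins was 515 and 512 CPM per kb in the control and 494 and 632 after knockdown, so the groups overlapped. PRDX2 made up 24.3% and 24.8% of this sum in sh-Scb cells and 4.59% and 3.87% in sh-SAPCD2 cells. The share of PRDX5 was 15.8% and 15.5% in the control and 26.6% and 39.0% after knockdown. The share of PRDX1 was 29.0% in each control library and 32.7% and 25.2% in the knockdown libraries, on either side of the control. On the canonical transcript lengths PRDX2 went from 30.5% and 31.0% to 6.41% and 5.75%. On those lengths PRDX1 was at 29.4% in each control library and at 36.9% and 30.3% in the knockdown libraries, above the control in both. Shares of a sum are bound to each other, so a lower PRDX2 raises the others without a change in their level.

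**Figure D3:**
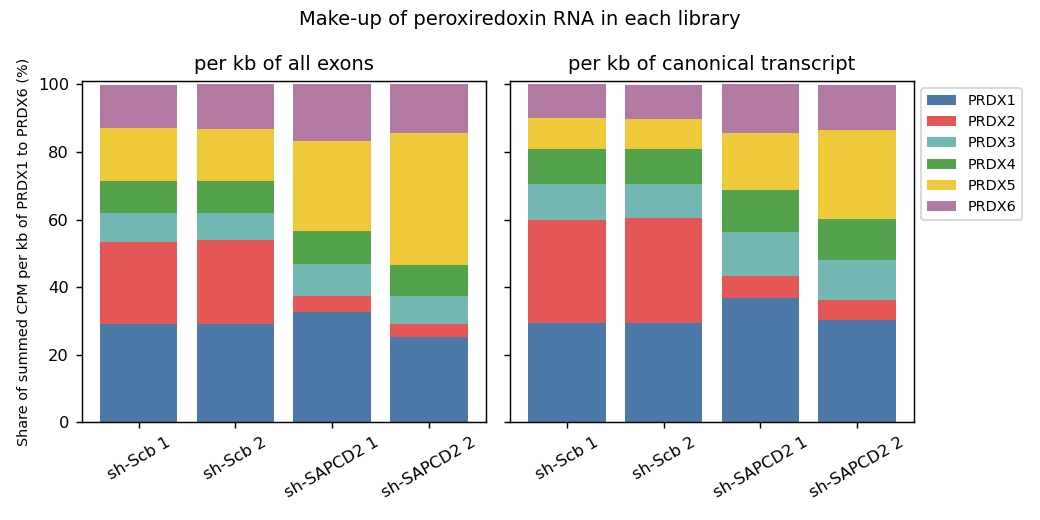
Share of each peroxiredoxin in the summed CPM per kb of PRDX1 to PRDX6, in percent, for each library; the left panel uses the union of exons and the right panel the canonical transcript. PRDX2 shrank from 24.3% and 24.8% to 4.59% and 3.87% on the union of exons, and PRDX5 took 26.6% and 39.0%.

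Promoter windows from RefSeq (GRCh38.p14, 250 bases before to 50 after the start) were at hand for 8 of the 10 members, with 11 windows in all. PRDX1 and PRDX6 have no entry. The core of the antioxidant response element, TGACNNNGC, was searched on both strands. It occurred in 1 of the 8 members with a window, TXNRD1, against 16.1% of all genes with a window. Both windows of TXNRD1 held it, 2 of the 11 member windows, against 13.3% of all 35116 windows. A longer form of this motif, overlapping the core, was found in 3.18% of all windows and 3.94% of genes. In TXNRD1 it was matched in the second window only. The windows of TXNRD1 are shown because they hold matches of the core, and the capitals mark the core alone. The first has matches 99 and 8 bases before the start and the second has 1 match 102 bases before it.

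TXNRD1, chr12:104215529-104215828, plus strand: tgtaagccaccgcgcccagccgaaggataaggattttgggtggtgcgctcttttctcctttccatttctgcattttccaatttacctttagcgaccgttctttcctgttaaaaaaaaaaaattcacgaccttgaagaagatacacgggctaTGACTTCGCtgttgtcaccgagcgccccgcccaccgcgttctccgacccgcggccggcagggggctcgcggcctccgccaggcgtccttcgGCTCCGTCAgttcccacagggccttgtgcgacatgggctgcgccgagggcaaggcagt
TXNRD1, chr12:104286782-104287081, plus strand: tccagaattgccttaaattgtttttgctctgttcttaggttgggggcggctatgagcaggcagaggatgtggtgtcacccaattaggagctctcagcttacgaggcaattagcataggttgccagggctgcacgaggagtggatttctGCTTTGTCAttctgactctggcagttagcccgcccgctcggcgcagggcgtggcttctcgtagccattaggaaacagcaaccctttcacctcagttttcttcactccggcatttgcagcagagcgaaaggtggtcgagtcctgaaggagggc

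The E-box CACGTG, searched on both strands, occurred in PRDX3, 157 bases before the start, and in PRDX4, 83 bases before it. These are 2 of the 8 members with a window, against 8.77% of all genes with a window. They are 2 of the 11 member windows, against 7.26% of all windows. SRXN1, whose log2 fold change was larger than that of TXNRD1, held neither motif in its window, nor did PRDX2, PRDX5, TXN and TXNIP. The window of PRDX2, the member with the largest difference, is shown with the 50 bases after the start in capitals. It has a GC content of 73.7% and 46 CpG dinucleotides, against medians of 58.7% and 14 over all windows.

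PRDX2, chr19:12801751-12802050, minus strand: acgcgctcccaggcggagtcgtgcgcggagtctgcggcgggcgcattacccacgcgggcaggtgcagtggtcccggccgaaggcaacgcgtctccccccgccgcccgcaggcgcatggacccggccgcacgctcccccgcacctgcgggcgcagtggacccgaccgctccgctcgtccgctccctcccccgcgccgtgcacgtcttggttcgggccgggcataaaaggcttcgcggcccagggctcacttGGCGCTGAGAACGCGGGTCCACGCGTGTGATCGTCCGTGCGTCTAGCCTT

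A match of these letters is a description of the sequence, and its part in the level of a gene was not tested.

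The wider redox pathways were read from 12 lists that hold none of the 10 members. Of their 157 genes, 148 were tested, and at the adjusted p alone 42 were higher (28.4%) and 16 lower (10.8%), beside 12.4% and 12.5% of all tested genes. With the fold threshold 18 were higher (12.2%) and 3 lower (2.03%), beside 4.69% and 5.15%. The median log2 fold change was 0.26. The lists were drawn up with earlier results of these data known, so they are not independent evidence of a direction. All adjusted p-values that follow are from the edgeR quasi-likelihood test over all genes.

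Of the 18 other thioredoxin family genes, 2 were higher and 3 lower (median log2 fold change 0.19). TXN2, the mitochondrial thioredoxin that serves PRDX3, fell from 58.8 and 60.5 CPM to 22.3 and 23.5 CPM (log2 fold change −1.38, standard error 0.119, adjusted p = 0.00263). Its 3′ untranslated region also holds at least 1 of the 4 singled-out letter strings, not all of which are in an arm of the hairpin. The same holds for 47 of the 148 list genes. The strings are in 12 of the 42 list genes called higher, SLC7A11 and SQSTM1 for example. They are in 8 of the 16 called lower, SELENON and RRM2 for example. Of all tested genes with a 3′ untranslated region, 33.9% hold at least 1 of them. The strings were singled out in an earlier scan of these same data, so nothing is read from this split by direction. Their part was not tested. TXNRD2, the mitochondrial reductase, was at 20.1 and 18.5 CPM against 17.5 and 29.5 CPM and was not called (adjusted p = 0.441). TXNDC12 of the endoplasmic reticulum (log2 fold change −0.69) and TXNDC9 (−0.65) were lower, and TMX1, a membrane-bound family member, was higher (0.48).

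Of the 4 tested relatives of TXNIP, 2 were higher and none was lower, and edgeR's unadjusted p and DESeq2 each gave 0 lower as well. ARRDC4, another alpha-arrestin tied to glucose uptake, rose from 12.9 and 10.5 CPM to 29.3 and 26.1 CPM (log2 fold change 1.24, standard error 0.165, adjusted p = 0.00587), and ARRDC3 had a log2 fold change of 0.96. ARRDC1 (0.20) and ARRDC2 (0.22) were not called. Of 6 genes of MondoA, MLX and glucose uptake, 4 were higher and 1 lower. HK2, a hexokinase, rose from 122.0 and 115.3 CPM to 293.9 and 314.2 CPM (log2 fold change 1.36, standard error 0.1, adjusted p = 0.00203). The glucose transporter genes SLC2A3 (0.81) and SLC2A1 (0.40) and MLX (0.46), the partner of MondoA, were higher, while MLXIP, which encodes MondoA, was lower (−0.59, adjusted p = 0.0156).

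The glutathione synthesis list had 7 of 12 genes higher and 1 lower, with a median log2 fold change of 0.73. SLC7A11, the cystine transporter, rose from 33.2 and 35.2 CPM to 143.7 and 107.7 CPM (log2 fold change 1.88, standard error 0.163, adjusted p = 0.00263). Its partner chain SLC3A2 (1.09), the glutamyltransferase relative GGT7 (1.09) and the catalytic subunit of glutamate-cysteine ligase GCLC (0.64) were also higher. Of 17 glutathione peroxidases and transferases, 3 were higher and 2 lower. GPX4, which reduces lipid peroxides, was at 108.3 and 105.6 CPM in the control and at 154.6 and 223.6 CPM after knockdown (log2 fold change 0.82, standard error 0.179, adjusted p = 0.0228). GSTM3 was higher (0.63), and GSTZ1 (−0.71) and GSTA4 (−0.64) were lower. None of the 3 tested genes of superoxide dismutases and catalase was called by edgeR, where an unadjusted p under 0.05 was reached by 1 higher and 1 lower gene and DESeq2 called 1 higher. They were SOD1 (0.22, adjusted p = 0.203), CCS, the copper chaperone of SOD1 (0.66, adjusted p = 0.0659) and CAT (−0.32, adjusted p = 0.0938).

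Of 25 genes of NRF2, its regulators and targets, 10 were higher and 2 lower, with a median log2 fold change of 0.55. The 4 with the smallest p were AKR1C3, an aldo-keto reductase (log2 fold change 2.03, adjusted p = 0.0023), SQSTM1, an adaptor that binds KEAP1 (1.47, adjusted p = 0.00241), MAFF, a small MAF partner of NRF2 (2.1, adjusted p = 0.00263), and OSGIN1 (3.10, adjusted p = 0.00628). OSGIN1 was scarce, from 0.796 and 0.473 CPM to 3.87 and 7.04 CPM. Of 16 genes of NADPH supply, 3 were higher and 1 lower, and the median log2 fold change was 0.03. IDH1, a cytosolic isocitrate dehydrogenase, rose from 71.1 and 74.7 CPM to 111.2 and 97.0 CPM (log2 fold change 0.51, standard error 0.116, adjusted p = 0.025), TKT was higher (0.43), and NNT, a mitochondrial source of NADPH, was lower (−0.60, adjusted p = 0.0137).

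Of 6 methionine sulfoxide reductases and sestrins, 2 were higher and none was lower, with 0 lower also at edgeR's unadjusted p and by DESeq2. SESN2, a stress-induced sestrin, rose from 5.07 and 3.53 CPM to 16.2 and 19.4 CPM (log2 fold change 2.05, standard error 0.23, adjusted p = 0.00406), and SESN3 from 333.7 and 333.2 CPM to 894.8 and 685.1 CPM (1.24, standard error 0.143, adjusted p = 0.00417). TXNRD1 is a selenoprotein, and of 18 genes of selenocysteine and selenoproteins 3 were higher and 3 lower. SELENON fell from 81.8 and 79.0 CPM to 24.6 and 29.9 CPM (log2 fold change −1.56, standard error 0.138, adjusted p = 0.00264), SEPSECS, which makes selenocysteine on its tRNA, was lower (−0.96), and SELENOM (1.46) and SELENOS (0.84) were higher. Of 13 genes of oxidative folding, the compartment of PRDX4, 6 were higher and 1 lower, led by PDIA5 (1.35), QSOX1 (1.13), ERO1B (1.35) and VKORC1L1 (0.70). Of 10 thioredoxin clients and partners, none was higher by the edgeR test (1 at an unadjusted p under 0.05, and 1 by DESeq2) and 2 were lower, both subunits of ribonucleotide reductase, which thioredoxin reduces. RRM2 fell from 258.1 and 251.5 CPM to 129.3 and 114.4 CPM (log2 fold change −1.06, standard error 0.107, adjusted p = 0.00322), and RRM1 from 242.9 and 245.1 CPM to 141.2 and 132.1 CPM (−0.84, standard error 0.0969, adjusted p = 0.0043).

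**Figure D4:**
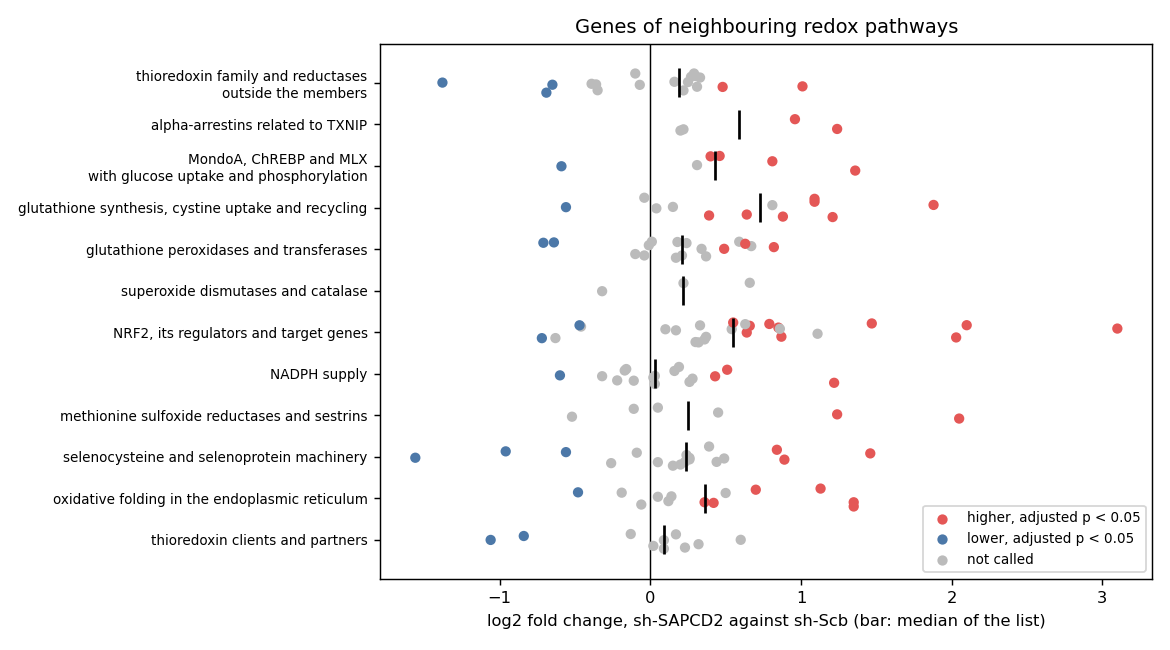
Log2 fold change of each tested gene in 12 lists around the peroxiredoxins, sh-SAPCD2 against sh-Scb; red points were higher and blue points lower at an adjusted p under 0.05 by edgeR, gray points were not called, and the black bar is the median of the list. The medians lie between 0.03 for NADPH supply and 0.73 for glutathione synthesis.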

How the data were processed

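RNA-seq of 4 SK-N-BE(2) libraries was used, 2 for each shRNA, with groups taken from the labels. Per the labels and the study's methods, the authors prepared TruSeq libraries from total RNA, aligned the reads to hg38 with HISAT2 2.2.0, ran StringTie and deposited whole-number counts for each Ensembl gene, without scaling. How coverage became counts, the strand setting and the treatment of reads with several matches are not given in the sources used here. Counts were scaled by TMM and tested in R 4.3.3 by edgeR 4.0.16 (quasi-likelihood test), after its filter on low counts (at least 10 in enough libraries and 15 in total). The biological coefficient of variation came to 15.4%. Calls were made at a p adjusted by Benjamini-Hochberg under 0.05 and, where the fold is named, with a log2 fold change beyond 1 in either direction. Exons, untranslated regions and positions came from GENCODE 44, which matched 17467 (93%) of the tested genes. The floor of 3 counts covers counting error only. Standard errors are the absolute log2 fold change divided by the square root of the quasi-likelihood F statistic. They and the SDs include the spread between libraries. The fit was tried on synthetic counts with known changes.

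The members, lists and tests were chosen with earlier results of these data known. The text names all members, up to 4 called genes of a list by smallest p (otherwise the 2 with the smallest p, and any gene of lists of 5 to 7), pseudogenes and overlapping genes of a member, the 5 genes nearest to PRDX2, and SAPCD2. TXNRD2, COPE, SCAF1, PPP2R1A and SRP9 were added or singled out after their values were seen. The 3′ untranslated region sites and the shares of the peroxiredoxin sum were also added later. Of the listed genes and markers, 179 of 180 matched the table. A called gene of the lists is counted but not reported by name. The comparison of protein sequences that had been planned was not run. Alternatives were DESeq2 1.42.0, its size factors, library totals, no filter, only genes averaging 1 CPM or more, a loess correction for GC content and length (span 0.3), the replicate block, both of these, and each library left out.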

Additional observations from a re-analysis of the deposited data

How the results depend on the processing

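Of 120 alternative estimates of the members' log2 fold changes, 118 kept the sign of the reported one, and both exceptions were TXN, which reached −0.08. PRDX2 met both criteria in 12 of 12 alternatives and PRDX5 in 9 of 12. At the adjusted p alone, SRXN1 was called in 12 of 12, PRDX5 in 11, TXNRD1 in 10, and PRDX6 and TXNIP in 8 each. Without the filter on low counts 553 genes of the whole table and 0 members were higher with the fold threshold. At the adjusted p alone 2 members and 26 list genes were higher in that fit, and 10 list genes were lower. SAPCD2 stayed at −0.91 there, with an adjusted p of 0.0749 by edgeR. The correction for GC content and length gave 71 list genes higher, and 7 members higher at the adjusted p alone. In the reported fit, without that correction, 5 members were higher at the adjusted p alone. Every list count of an alternative fit in this section is at the adjusted p alone, by which the reported fit had 42 list genes higher and 16 lower. With the fold threshold the reported fit had 18 list genes higher and 3 lower. With each library left out in turn, 705 to 1323 genes were higher and 841 to 1205 lower in the whole table, 0 to 2 members were higher with the fold threshold and 2 to 7 at the adjusted p alone, 24 to 75 list genes were higher and 5 to 28 lower, and the log2 fold change of SAPCD2 lay between −1.23 and −0.67. The lone library of a group was then assumed to vary like the other group. PRDX5 lost its call without the second sh-SAPCD2 library, and SRXN1, at 1.00, just passed the fold threshold without the first, its only such call.

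Over the tested genes, libraries with the same replicate number did not deviate together from their group means (r = −0.0188). With 2 libraries a group this correlation cannot show whether the numbers pair libraries, and the labels do not say. The reported fit treats the libraries as unpaired. With the fold threshold the replicate block gave 1044 higher and 1160 lower genes, and 1 higher and 1 lower member. It gave 46 higher and 15 lower list genes at the adjusted p alone, and −0.94 for SAPCD2. At the adjusted p alone it left 3 members higher, since PRDX6 and TXNIP lost their calls. With the block and the correction for GC content and length together 0 members were higher with the fold threshold, since PRDX5 was then at 0.99. At the adjusted p alone 6 members and 69 list genes were higher in that fit.

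With 2 libraries a group and 1 shRNA, effects of this hairpin cannot be told apart from those of less SAPCD2. RNA levels say nothing of protein, of oxidation state or of peroxide. Library depth left every member far above the floor of 3 counts, whereas OSGIN1 and the gene overlapping SRXN1 had under 1 CPM in the control. Annotated exon lengths set the order of levels, as the place of PRDX2 in the control shows, so orders are tied to the lengths used.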

Other observations

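Pseudogenes that bear the names of the peroxiredoxins or of thioredoxin took almost none of the reads. Of 18 in the table, 7 had a count in any library, and the highest was PRDX3P1, with 7 and 17 counts in sh-Scb cells and 17 and 20 in sh-SAPCD2 cells. PRDX2P1 had 0 and 2 counts in the control and 2 and 6 after knockdown, beside 1167 or more for PRDX2 in every library.

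Genes within the span of a member had values of their own. HOOK2, whose span overlaps that of PRDX2 without a shared exonic base, was at 15.1 and 12.1 CPM in the control and at 11.8 and 16.0 CPM after knockdown (log2 fold change 0.03, standard error 0.211, edgeR adjusted p = 0.932). PRDX6-AS1, a lncRNA opposite PRDX6, had 50 and 72 counts against 32 and 52 (log2 fold change −0.59, standard error 0.329, edgeR adjusted p = 0.234), while PRDX6 was higher. RPL18AP3, a processed pseudogene within the span of TXNRD1, had 1528 and 1517 counts in the control and 1487 and 3205 after knockdown (log2 fold change 0.54, standard error 0.249, edgeR adjusted p = 0.161). EID3, inside the span of TXNRD1, was called lower, with 31 and 43 counts against 8 and 11 (log2 fold change −1.99, standard error 0.424, edgeR adjusted p = 0.0211).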
